A study of Mus musculus with 14 samples.

Results

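The hippocampal transcriptome of lupus-prone mice was compared between mice with active and with kinase-dead IRAK4 (interleukin-1 receptor-associated kinase 4), over all genes outside the Ccl21 locus. Of 55536 Ensembl genes in the count table, 55313 were members, after leaving out 137 genes around Ccl21 on chromosome 4, in a stretch flanked by B4galt1 and Reck (mm10, GENCODE M21 gene models), and 86 genes on unplaced scaffolds. Of these members, 37904 had at least 10 counts over all libraries and were tested, of 38070 genes tested in the series. MRL mice were B6.MRL-Faslpr/J mice, which carry the lpr mutation of Fas on a C57BL/6 background. MRL-IRAK4-KD mice were MRL mice crossed with mice that carry kinase-dead IRAK4 in all cells. Each group held 4 mice of 10 months, 1 library per mouse, and differences are given as MRL minus MRL-IRAK4-KD on a log2 scale unless stated otherwise. The series also held 3 C57BL6/J and 3 IRAK4-KD mice of the same age, labelled as free of the lpr mutation, which entered the fit and are named where a gene was also compared between them. All mice were perfused with cold PBS before the hippocampus was taken. The labels give no sex for these libraries. The paper states that its spleen results justified female mice in later experiments, and all MRL and MRL-IRAK4-KD mice had Xist, a transcript of the inactive X chromosome. Cells were selected by dissection alone, so that fewer cells of a type and less RNA per cell cannot be told apart.

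IRAK4 is the kinase that joins Toll-like receptors and the interleukin-1 receptor family, through the adaptor MyD88, to NF-κB and MAP kinase signalling. Toll-like receptors that sense nucleic acids also drive type I interferon through IRF transcription factors, and interferon acts through JAK and STAT proteins to switch on interferon-stimulated genes. Loss of functional Fas in lpr mice leaves autoreactive lymphocytes alive, so these mice develop autoantibodies and inflammation. The hippocampus is built from pyramidal neurons, granule cells and interneurons, with astrocytes, oligodendrocytes, microglia and a dense vessel bed between them.

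The 8 libraries held between 321773653 and 571925600 counts in Ensembl genes. The library of MRL-IRAK4-KD replicate 4 (B4) had the fewest of them and stood apart. Its sequencing reads, 229882443, lay between the 192149439 and 250473547 of MRL-IRAK4-KD replicates 2 and 1. Its input RNA concentration by Qubit was 27.4 on the submitters' sheet against 39.6 to 43.7 in the other 13 libraries. By NanoDrop it was 748.8, within their range of 471.8 to 1777.4, and the listed input amount was the same in every library. Its library concentration by Bioanalyzer was 4.7 nM against 6.26 to 7.87 nM. Its score on the first principal component (49.4% of the variance) was 113 against -20.1 to 4.68. The counts of genes are therefore given with and without B4. Irak4 itself was 2.34 ± 0.232 CPM (counts scaled to the library total, SD, n = 4) in the MRL mice against 1.98 ± 0.351 CPM in the MRL-IRAK4-KD mice, which says nothing about a mutation that spares the transcript. The transcript Fas-201 had 0 counts in all 8 libraries of mice labelled as carrying lpr, while Fas-204 had 268 to 964. The library labelled IRAK4-KD replicate 3, whose genotype holds no lpr by its label, also had 0 counts of Fas-201 with 514 of Fas-204, and what rests on that group is given with and without it. The neuronal, astrocyte, myelin and microglial markers that define hippocampal tissue were present in all 8 libraries, with Slc17a7, the vesicular glutamate transporter of pyramidal and granule cells, at 1161 to 1494 CPM and Mbp, of myelin, at 1722 to 2488 CPM.

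Few single genes separated the groups after adjustment over all genes. At an adjusted p below 0.05 (edgeR's quasi-likelihood test, Benjamini-Hochberg), 6 of 37904 genes were higher in MRL than in MRL-IRAK4-KD mice (0.0158%) and 4 were lower (0.0106%). Without B4 the counts were 15 (0.0398%) and 7 (0.0186%) of 37670, and all 10 earlier genes were among them. At an unadjusted p below 0.05, 1914 genes were higher (5.05%) and 2365 lower (6.24%). Without B4, 1920 were higher (5.1%) and 1251 lower (3.32%), a split that became 1662 and 1636 when libraries were scaled by total counts only. Genes whose 4 MRL values all lay above the 4 MRL-IRAK4-KD values numbered 1010 (2.66%), and those with all values below numbered 1014 (2.68%). Against the 3 MRL-IRAK4-KD mice without B4 they numbered 1422 (3.77%) and 1773 (4.71%). The median difference over all genes was 0.00, and 0.02 without B4. The p-values measure the spread between mice. The counts past the adjusted threshold turned on single libraries. The 6 higher genes became 1 without MRL replicate 2 or MRL-IRAK4-KD replicate 3, 2 without MRL replicate 4 and 3 when MRL-IRAK4-KD replicate 1 was left out, and 1 without the library labelled IRAK4-KD replicate 3, and the 4 lower genes became 12 without MRL replicate 1 and 2 without MRL replicate 2, 3 or 4 or MRL-IRAK4-KD replicate 3. With B4 out, the 15 and 7 became 130 and 159 when MRL replicate 1 was also left out, 5 and 4 without MRL replicate 2, 7 and 7 when MRL-IRAK4-KD replicate 2 was the second one out, and 4 and 3 when it was MRL-IRAK4-KD replicate 3. The 7 lower genes became 4 without MRL replicate 4 or MRL-IRAK4-KD replicate 1. At an unadjusted p, the counts of 1914 and 2365 fell to 1258 and 1333 without MRL replicate 4, and the 2365 to 1200 without MRL replicate 3. With B4 out, 1231 were higher without MRL-IRAK4-KD replicate 3, and 2103 or 767 were lower without MRL replicate 1 or MRL-IRAK4-KD replicate 1.

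The lower genes depended on B4 more than the higher ones did. Of the 1914 higher genes at an unadjusted p below 0.05, 1376 (71.9%) were also among the 1920 higher ones without B4 (71.7% of those). Of the 2365 lower genes, 812 (34.3%) were among the 1251 lower ones without B4 (64.9% of those). Genes with short transcripts stood high in B4: among genes with a mean of at least 1 CPM and up to 500 exon bases, the median log2 ratio of B4 to the other 3 MRL-IRAK4-KD libraries was 0.77, and among the longest it was -0.52. The difference between MRL and MRL-IRAK4-KD ran the other way, from a median of -0.34 in the shortest genes to 0.14 in the longest, and from -0.04 to 0.04 without B4. The higher genes had a median of 3597 exon bases and the lower ones 1911, against 2070.5 in all tested genes, and without B4 these medians were 3611.5, 2687 and 2087. Protein-coding genes made up 69.7% of the higher genes and 51.2% of the lower genes, and 73.5% and 68.3% without B4, against 49.9% of all tested genes and 50.1% without B4.

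**Figure D1:**
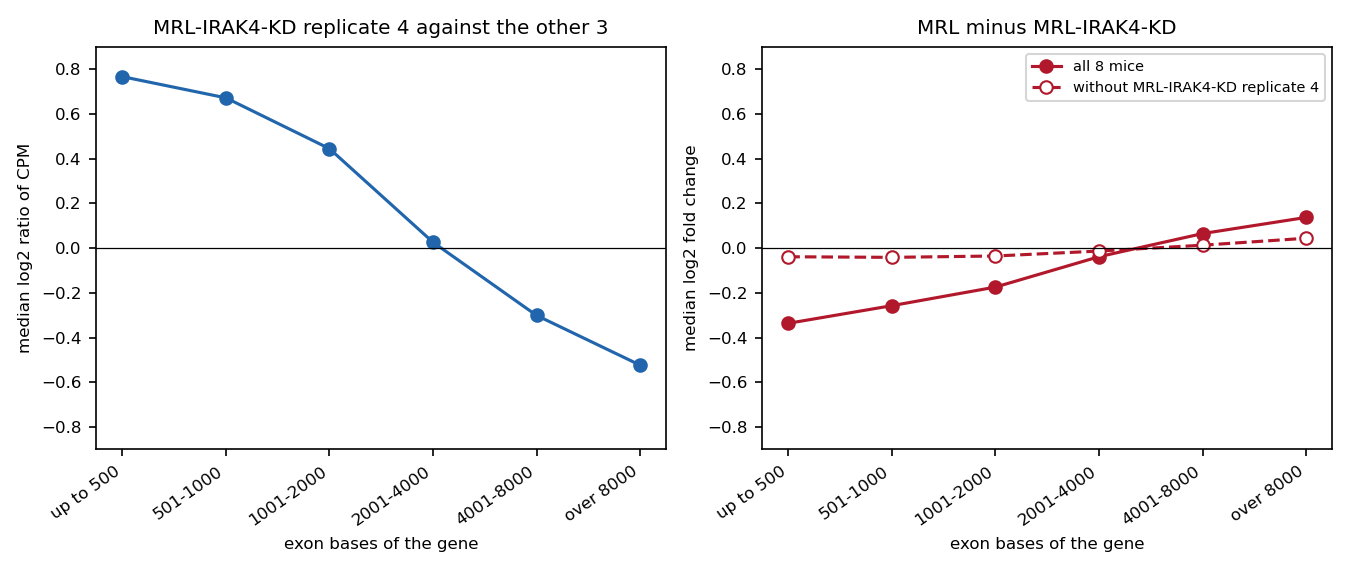
Median log2 difference of genes in classes of exon length, in bases, for MRL minus MRL-IRAK4-KD with and without B4 and for B4 over the other 3 MRL-IRAK4-KD libraries. The median log2 ratio of B4 to its own group runs from 0.77 in the shortest class to -0.52 in the longest, and the difference between groups flattens to between -0.04 and 0.04 without B4.

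The 6 genes higher in MRL mice included genes of vessels and of sterol and organic anion handling. Ch25h makes 25-hydroxycholesterol, an interferon-induced sterol, and had 0.43, 0.586, 0.519 and 2.2 CPM in the 4 MRL mice and 0.0964, 0.0703, 0.147 and 0.0466 CPM in the 4 MRL-IRAK4-KD mice. No value overlapped, and MRL replicate 4 stood far above its group. The difference was 3.37 ± 0.55 (SE, adjusted p = 0.037). Notch3, the receptor of pericytes and vascular smooth muscle, was the tightest of the set, at 8.58, 9.16, 9.29 and 9.26 CPM against 5.94, 5.88, 5.98 and 5.97 CPM. All 4 MRL mice were higher, by 0.61 ± 0.10 (adjusted p = 0.037). Slco1a4, an organic anion transporter of brain endothelium, measured 39.4, 39.7, 42.7 and 53.6 CPM in MRL against 20.8, 30.3, 24.4 and 20.3 CPM in MRL-IRAK4-KD mice, without overlap, and differed by 0.88 ± 0.15 (adjusted p = 0.043). Shroom1, a member of the Shroom family of actin-binding proteins, was at 7.68, 7.56, 7.07 and 7.28 CPM against 5.24, 4.5, 3.94 and 4.74 CPM, again with the groups apart (0.68 ± 0.12, adjusted p = 0.045). The mitochondrial phenylalanine tRNA mt-Tf had 2.94, 3.01, 2.79 and 3.23 CPM against 1.84, 1.61, 1.5 and 1.06 CPM and differed by 1.00 ± 0.17 (adjusted p = 0.049). Mid1-ps1, a pseudogene copy of the ubiquitin ligase gene Mid1 on the Y chromosome, had 5.02, 7.24, 5.39 and 3.1 CPM against 0.875, 0.908, 1.12 and 0.814 CPM. The groups did not overlap and differed by 2.48 ± 0.27 (adjusted p = 0.00077), but reads of the copy and of Mid1 may be split uncertainly. Every mouse of both groups also had Xist, given below, which is transcribed from the inactive X chromosome. Reads counted for the Y chromosome copy therefore cannot be taken to come from it.

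Of the 4 genes lower in MRL mice, 3 lie within a few megabases of each other on chromosome 11. Lyrm7, an assembly factor of respiratory complex III, lies at chr11:54826866-54860916 on the minus strand and had 13.2, 14.7, 12.8 and 12.7 CPM in MRL against 23.3, 29.9, 31.3 and 25.3 CPM in MRL-IRAK4-KD mice. The lowest MRL-IRAK4-KD mouse lay well above the highest MRL mouse, and the difference was -1.04 ± 0.10 (adjusted p = 0.00014). Tnip1, which with A20 restrains NF-κB signalling, lies close by at chr11:54910785-54962917 and measured 17.2, 18.4, 17.5 and 18.2 CPM against 24, 31.2, 30.8 and 26.4 CPM. It was lower in every MRL mouse, by -0.65 ± 0.09 (adjusted p = 0.0093). The long noncoding RNA Gm39822, at chr11:51898966-51909624, had 1.98, 2.12, 2.98 and 2.44 CPM against 5, 6.98, 7.55 and 4.75 CPM, without overlap (-1.35 ± 0.18, adjusted p = 0.0046). The noncoding transcript 1700030C10Rik on chromosome 12 had 0.549, 0.194, 0.286 and 0.259 CPM against 1.88, 1.02, 1.81 and 1.37 CPM and differed by -2.23 ± 0.34 (adjusted p = 0.017).

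The 3 chromosome 11 genes were also past the threshold between IRAK4-KD and C57BL6/J mice, a comparison in which 38 of 37904 genes (0.1%) were called in either direction. Without the library labelled IRAK4-KD replicate 3, 18 of 37545 genes (0.0479%) were called. As IRAK4-KD minus C57BL6/J, Lyrm7 differed by 1.11 (adjusted p = 0.00029), Gm39822 by 1.63 (adjusted p = 0.0029) and Tnip1 by 0.67 (adjusted p = 0.018). Without that library the differences were 1.08 (adjusted p = 0.0033), 1.69 (adjusted p = 0.014) and 0.69 (adjusted p = 0.08) in the same order. In both comparisons the mice labelled with kinase-dead IRAK4 were the higher ones for these genes, and the other 7 called genes were not past the threshold in that comparison. In a stretch of chromosome 11 that takes in these 3 genes and was chosen after the values were seen, 78 genes were tested. Of them, 7 were higher and 8 lower in MRL at an unadjusted p below 0.05 (all genes 5.05% and 6.24%). The 4 past the adjusted threshold were these 3 genes and Shroom1 at 53457205, all named above. Without B4, 5 genes of the stretch were past it, these 4 and Olfr1372-ps1, which is given below. The comparison between IRAK4-KD and C57BL6/J mice shares no library with the one between MRL and MRL-IRAK4-KD mice. Both were taken from the same fit, however, with a shared estimate of each gene's spread, so their p-values are not independent.

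**Figure D2:**
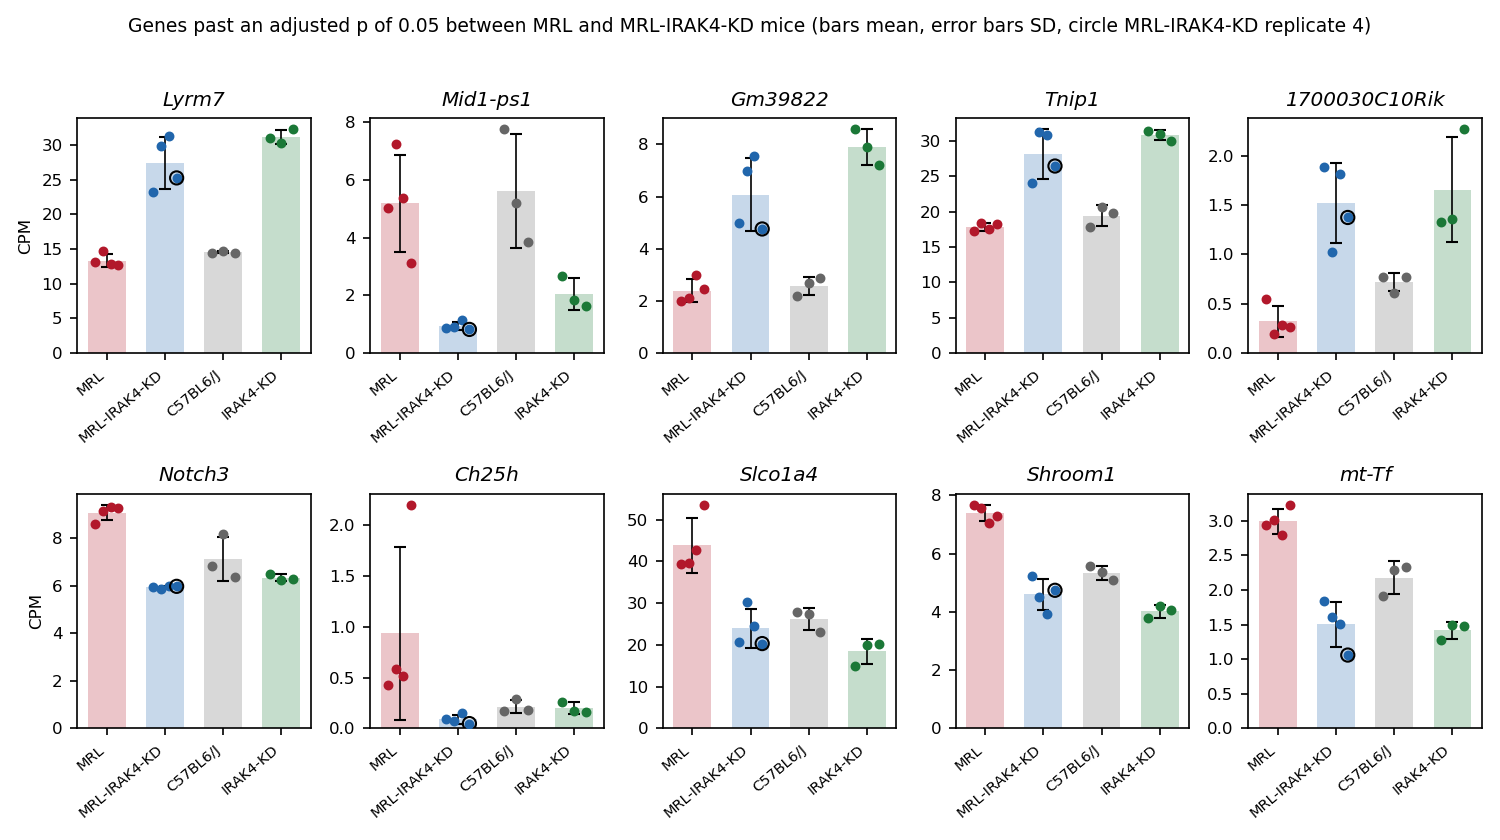
CPM on linear axes from 0 in each mouse of the 4 groups for the 10 genes past an adjusted p of 0.05, with bars at the mean, error bars of 1 SD, a point per mouse and a circle around B4. In each gene the 4 MRL values lie on one side of the 4 MRL-IRAK4-KD values, and in Lyrm7, Gm39822 and Tnip1 the IRAK4-KD mice lie with the MRL-IRAK4-KD mice.

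The calls held unevenly. DESeq2 called 358 genes and limma-voom with quality weights 198, and both called all 10 genes. When each of the 8 libraries was left out in turn, Lyrm7, Mid1-ps1 and Gm39822 stayed below 0.05. The adjusted p reached 0.0957 for Tnip1 without MRL replicate 3, 0.136 for 1700030C10Rik without MRL replicate 4, 0.150 for Notch3 and 0.209 for mt-Tf without MRL-IRAK4-KD replicate 3, 0.155 for Ch25h and 0.185 for Slco1a4 without MRL-IRAK4-KD replicate 1, and 0.155 for Shroom1 without MRL replicate 2.

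Without B4, 9 further genes were called higher. Eng, the endothelial co-receptor endoglin, had 14.6, 14.4, 13.3 and 19.3 CPM in the MRL mice against 8.77, 9.49 and 7.42 CPM in the MRL-IRAK4-KD mice, with 11.7 CPM in B4, and differed by 0.87 ± 0.13 (adjusted p = 0.010). Ushbp1, a gene with endothelial expression, had 3.4, 3.71, 3.11 and 3.82 CPM against 1.76, 2.42 and 1.84 CPM, with 2.04 CPM in B4 (0.83 ± 0.14). For both genes the lowest MRL value exceeded the highest MRL-IRAK4-KD value, B4 included. Lag3, an inhibitory receptor of lymphocytes and microglia, had 7.93, 7.72, 6.64 and 8.31 CPM against 4.18, 4 and 4.46 CPM, but 8.2 CPM in B4 (0.88 ± 0.14). Mid1 had 17.6, 29.7, 21.7 and 15.1 CPM against 5.91, 8.33 and 7.62 CPM, with 14.1 CPM in B4 (1.55 ± 0.26). G530011O06Rik, a transcript inside Mid1 on the X chromosome and on its opposite strand, had 4.55, 9.25, 6.06 and 4.18 CPM against 0.632, 0.849 and 0.624 CPM, and 5.26 CPM in B4 (3.11 ± 0.32). For Lag3 and G530011O06Rik the value of B4 thus lay within the MRL range, and for Mid1 just below it, and reads of Mid1, its pseudogene and the antisense transcript cannot be assigned with certainty. The stress transcription factor Atf4 was 105, 129, 124 and 105 CPM against 79.7, 78.7, 79.4 and 58.5 CPM, higher in all 4 MRL mice, by 0.65 ± 0.12 (adjusted p = 0.068) and by 0.56 ± 0.09 without B4 (adjusted p = 0.022). Among genes newly lower without B4, Lyplal1, a lysophospholipase-like enzyme, differed by -0.83 ± 0.15, the noncoding Gm47033 by -0.78 ± 0.13 and Olfr1372-ps1, an olfactory receptor pseudogene at chr11:52154722-52168159, by -1.62 ± 0.25.

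Interferon-stimulated genes were higher in MRL mice as a group. All 30 list genes had a positive difference, 25 were higher and 0 lower at an unadjusted p below 0.05 (all genes 5.05% and 6.24%), and the median was 0.83 (all genes 0.00). None of the 30 passed edgeR's adjusted threshold, 9 passed in DESeq2 and 4 in limma-voom. Without B4, 27 were higher and the median was 0.90. In 16 genes the 4 MRL values all lay above the 4 MRL-IRAK4-KD values (2.66% of all genes). Irf7, the factor that amplifies interferon production, had 2.62, 3.23, 2.98 and 5.88 CPM in the MRL mice against 1.6, 1.99, 1.41 and 2.03 CPM in the MRL-IRAK4-KD mice. MRL replicate 4 was the highest, and the groups did not overlap (1.07 ± 0.24, unadjusted p = 0.00058, adjusted p = 0.25). Ifih1, the RNA sensor MDA5, had 4.78, 4.98, 5.41 and 7.24 CPM against 3.14, 4.35, 2.98 and 2.5 CPM (0.80 ± 0.18, adjusted p = 0.26). Ifit1, which binds foreign RNA caps, had 3.39, 2.96, 2.93 and 5.83 CPM against 1.31, 2.34, 1.78 and 1.83 CPM (1.06 ± 0.27, adjusted p = 0.33). Both were without overlap and again highest in MRL replicate 4. That mouse had the highest of the 8 values in 27 of the 30 genes, and the summed level of the list was 389 CPM in it, 158 to 175 CPM in the other 3 MRL mice and 118 to 137 CPM in the 4 MRL-IRAK4-KD mice. Without MRL replicate 4, 17 genes were higher and the median was 0.52, and with B4 also out 17 were higher.

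Promoter sequence was read for the interferon-stimulated list because its members moved together. The letters GAAANNGAA, or TTCNNTTTC on the other strand, are the core that interferon regulatory factors and the ISGF3 complex recognise, and were searched on both strands in the 250 bases before each start (RefSeq, GRCm38.p6). They occurred in 16 of the 23 list genes with a promoter in the table (69.6%), against 2211 of 27025 genes in all (8.18%). The list was made of genes known to respond to interferon. This share therefore describes the list and says nothing about the difference between the groups. They occurred in 3 of 17 genes of the antigen presentation list, 1 of 17 of the endothelial list and 6 of 26 of the ribosomal protein list. The windows of Irf7, Ifih1, Ifit1, H2-D1 and Cxcl10 were read singly, and the 3 shown are those that held a match. They run 5′ to 3′ on the strand of the gene, with the matched letters in capitals. Ifit1 (chr19:34640639-34640888, plus strand) holds 3 matches, of which the first and the second overlap, Ifih1 (chr2:62646256-62646505, minus strand) holds 1 match and Cxcl10 (chr5:92348890-92349139, minus strand) holds 1 match.
Ifit1: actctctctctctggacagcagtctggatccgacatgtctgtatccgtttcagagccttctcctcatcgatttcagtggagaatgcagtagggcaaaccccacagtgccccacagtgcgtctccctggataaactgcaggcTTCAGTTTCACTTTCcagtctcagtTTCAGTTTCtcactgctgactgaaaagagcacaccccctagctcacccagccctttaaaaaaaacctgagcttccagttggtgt
Ifih1: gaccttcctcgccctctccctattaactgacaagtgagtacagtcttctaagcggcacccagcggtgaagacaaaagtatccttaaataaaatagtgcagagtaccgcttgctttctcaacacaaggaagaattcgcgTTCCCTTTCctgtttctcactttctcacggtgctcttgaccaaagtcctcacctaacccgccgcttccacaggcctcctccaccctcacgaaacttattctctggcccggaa
Cxcl10: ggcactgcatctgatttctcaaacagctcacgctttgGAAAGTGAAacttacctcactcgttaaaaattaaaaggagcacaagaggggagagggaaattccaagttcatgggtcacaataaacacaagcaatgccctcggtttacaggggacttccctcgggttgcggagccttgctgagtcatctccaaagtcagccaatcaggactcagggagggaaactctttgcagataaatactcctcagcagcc
The first base of the matches stands 109, 103 and 84 bases before the start in Ifit1, 112 bases before it in Ifih1 and 213 bases before it in Cxcl10. The windows of Irf7 and H2-D1 held 0 matches to these letters.

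Part of the antigen presentation list was higher in MRL mice. Of 22 genes for MHC class I and class II and their peptide loading, 10 were higher and 0 lower at an unadjusted p below 0.05 (all genes 5.05% and 6.24%). The median was 0.61. Without B4 12 were higher (all genes 5.1%), with a median of 0.82. None passed edgeR's adjusted threshold, while DESeq2 called 5 and limma-voom 0. The class I heavy chain H2-D1 had 43.7, 43.5, 37.1 and 83.1 CPM in the MRL mice against 28.1, 29.9, 28.8 and 28.9 CPM in the MRL-IRAK4-KD mice, without overlap (0.85 ± 0.20, adjusted p = 0.28). The nonclassical class I gene H2-Q7 had 4.07, 3.85, 2.34 and 13.4 CPM against 1.32, 1.76, 1.41 and 1.29 CPM (2.04 ± 0.42, adjusted p = 0.18). B2m, the light chain shared by class I molecules, had 110, 116, 92.1 and 178 CPM against 84.1, 89.5, 82.3 and 109 CPM, and here B4 lay inside the MRL range (0.44 ± 0.17). Class I family members are close in sequence, so reads may be split uncertainly between them. Without MRL replicate 4 the list had 7 higher genes and a median of 0.18.

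Most vessel markers were higher in MRL mice. Of 22 markers of endothelium and pericytes, 13 were higher and 0 lower at an unadjusted p below 0.05 (all genes 5.05% and 6.24%). The median was 0.51. Without B4 14 were higher (all genes 5.1%), with a median of 0.48. Slco1a4 was the member past the adjusted threshold, and DESeq2 called 6 and limma-voom 4. Tie1, an endothelial receptor tyrosine kinase, had 6.69, 5.66, 5.21 and 8.75 CPM in the MRL mice against 3.24, 4.37, 3.26 and 3.72 CPM in the MRL-IRAK4-KD mice, without overlap (0.86 ± 0.18, adjusted p = 0.19). Cldn5, the tight junction claudin of brain endothelium, had 16.2, 16.7, 12.5 and 23.5 CPM against 12.5, 14.4, 10.3 and 18.4 CPM, and the groups overlapped (0.31 ± 0.22, unadjusted p = 0.18). The summed level of the list was 533 to 782 CPM in the MRL mice against 410 to 478 CPM in the MRL-IRAK4-KD mice, so the sums did not overlap. MRL replicate 4 was the highest mouse in 18 of the 22 genes, and without it 9 genes were higher.

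**Figure D3:**
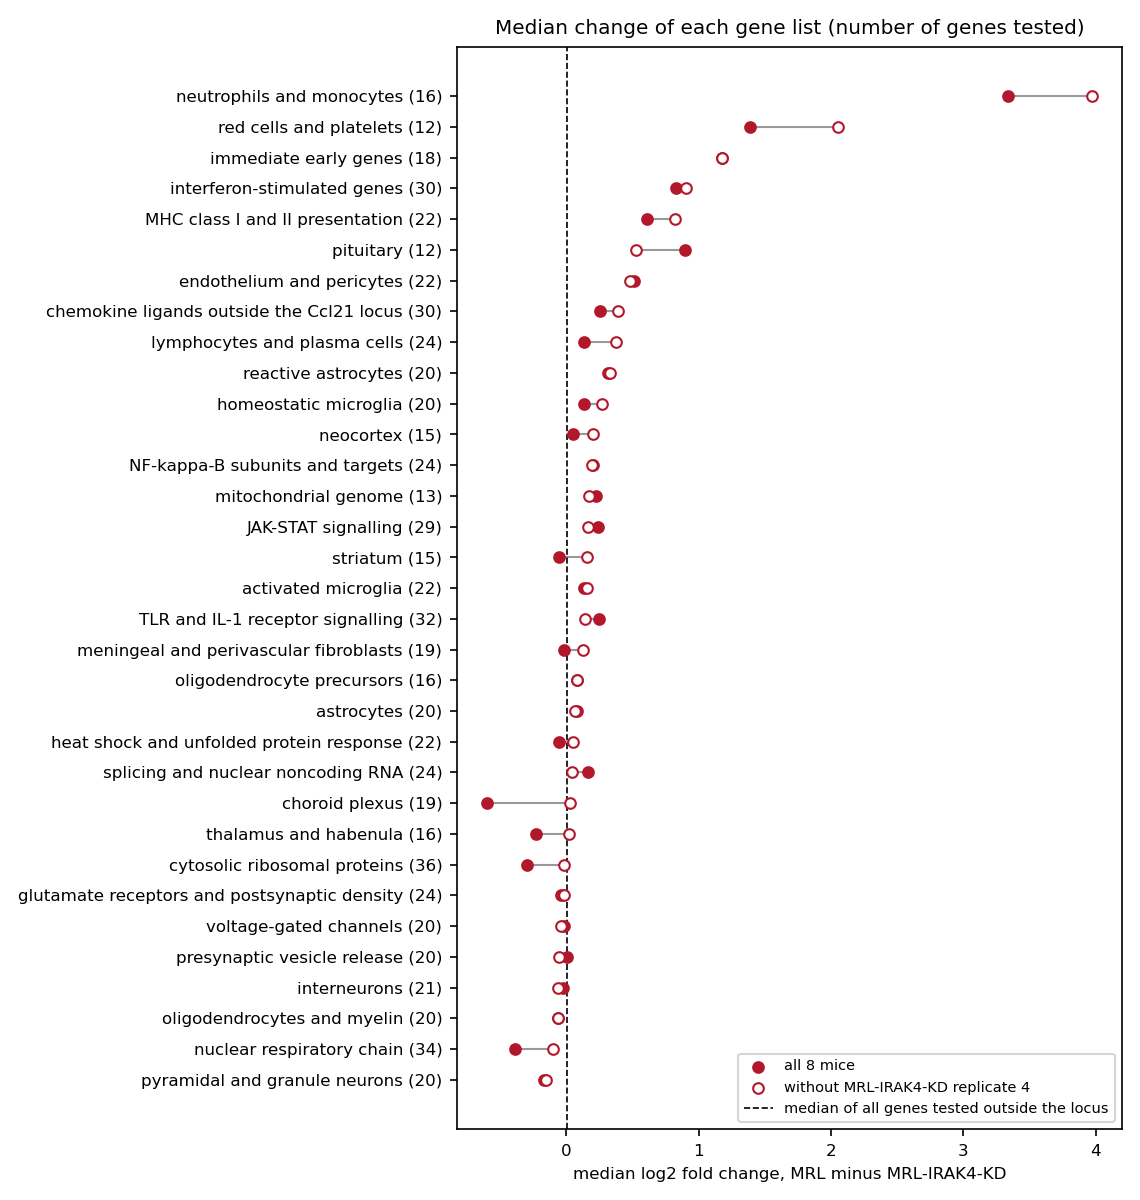
Median log2 difference, MRL minus MRL-IRAK4-KD, over the tested genes of each gene list, with filled points for all 8 mice, open points without B4 and a dashed line at the median of all genes tested. Interferon-stimulated genes lie at 0.83 and 0.90, endothelial genes at 0.51 and 0.48, and respiratory chain genes move from -0.39 to -0.10 when B4 is left out.

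Few genes of Toll-like and IL-1 receptor signalling differed, and more NF-κB genes were higher than lower in MRL mice. Over all genes, 5.05% were higher and 6.24% lower at an unadjusted p below 0.05, and 5.1% and 3.32% without B4. Of 32 genes of Toll-like and IL-1 receptor signalling, 3 were higher and 1 lower with and without B4, with medians of 0.25 and 0.14. The 3 became 1 without MRL replicate 1 or 4 and 5 without MRL replicate 2 or 3. None passed the adjusted threshold in edgeR, DESeq2 or limma-voom. Of the 32, 26 had a positive difference, and 23 without B4. Il1b, the ligand IL-1β, had 0.266, 0.437, 0.17 and 0.243 CPM in the MRL mice against 0.114, 0.171, 0.126 and 0.0622 CPM in the MRL-IRAK4-KD mice, with 2 mice of different groups almost level (1.24 ± 0.52, unadjusted p = 0.032). Irak1bp1, which binds IRAK1, was the lower gene, at 21.5, 20.6, 20.3 and 19 CPM against 24.5, 21.9, 25 and 25.5 CPM (-0.25 ± 0.10). Of 24 NF-κB subunits and targets, 6 were higher and 1 lower, with a median of 0.20, and 8 and 1 without B4, with Tnip1 the lower one. Of the 24, 17 had a positive difference, and 20 without B4. The subunit Nfkb1 had 16.6 to 19.3 CPM in the MRL mice against 15.9 to 17 CPM in the MRL-IRAK4-KD mice (0.16 ± 0.09, unadjusted p = 0.078). The atypical IκB protein Bcl3 had 0.562, 0.423, 0.349 and 1.16 CPM against 0.299, 0.273, 0.163 and 0.205 CPM, without overlap (1.41 ± 0.39, adjusted p = 0.37). Without MRL replicate 4, 3 of the NF-κB genes were higher.

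More genes were higher than lower in cytokine receptor signalling and among chemokines. Over all genes, 5.05% were higher and 6.24% lower at an unadjusted p below 0.05, and 5.1% and 3.32% without B4. Of 29 JAK-STAT genes, 11 were higher and 0 lower with and without B4, with medians of 0.24 and 0.16. Of these genes, 4 were higher without MRL replicate 4. With B4 out, 6 were higher without MRL-IRAK4-KD replicate 2 and 5 without MRL-IRAK4-KD replicate 3. None passed in edgeR after adjustment, and DESeq2 called 2 and limma-voom 3. Stat6, which relays interleukin-4 signals, had 9.14, 9.14, 11.3 and 12 CPM in the MRL mice against 7.14, 7.84, 7.39 and 6.31 CPM in the MRL-IRAK4-KD mice, without overlap (0.54 ± 0.13, adjusted p = 0.30). Socs3, a feedback inhibitor of the pathway, had 1.46, 3.48, 2.79 and 4.31 CPM against 1.08, 1.61, 1.08 and 0.448 CPM, and MRL replicate 1 lay inside the other range (1.52 ± 0.37, adjusted p = 0.32). The kinase Jak1, used by interferon receptors, overlapped between groups at 129 to 177 CPM in the MRL mice against 131 to 163 CPM in the MRL-IRAK4-KD mice (0.00 ± 0.11, unadjusted p = 0.99). Of 30 chemokine ligands outside the Ccl21 locus, 8 were higher and 1 lower, with a median of 0.25 (0.32 without Ccl20, which had 0 counts in all 8 libraries), and 7 and 1 without B4. Cxcl10, which draws CXCR3-bearing T cells, had 1.11, 0.593, 0.943 and 1.91 CPM in the MRL mice against 0.273, 0.284, 0.58 and 0.196 CPM in the MRL-IRAK4-KD mice, with the groups just apart (1.78 ± 0.45, adjusted p = 0.32). Ppbp, the platelet chemokine CXCL7, had 0.49, 0.456, 0.0147 and 0.323 CPM against 0.0201, 0, 0.0161 and 0 CPM, so 3 of the 4 MRL mice were high and MRL replicate 3 lay with the MRL-IRAK4-KD mice (5.02 ± 1.26, unadjusted p = 0.0014). Without MRL replicate 4, 5 chemokines were higher.

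Most microglial identity genes were higher in MRL mice once B4 was left out, and few with it. Over all genes, 5.05% were higher and 6.24% lower at an unadjusted p below 0.05, and 5.1% and 3.32% without B4. Of 20 homeostatic microglial markers, 4 were higher and 0 lower with all libraries (median 0.13), and 14 were higher and 0 lower without B4 (median 0.27, all genes 0.02). In 12 of them the 4 MRL mice lay above the 3 MRL-IRAK4-KD mice (3.77% of all genes). The complement receptor subunit Itgam had 28.9, 22.3, 23.4 and 27.5 CPM in the MRL mice against 18.5, 20.6, 20.9 and 7.62 CPM in the MRL-IRAK4-KD mice, with B4 far below the rest (0.61 ± 0.23). P2ry12, the purinergic receptor of resting microglia, overlapped, at 31.9 to 43.2 CPM against 20.1 to 40.4 CPM (0.18 ± 0.17). The adjusted threshold was passed by 0 of these genes in edgeR with and without B4, and DESeq2 called 0 and 2. Without MRL replicate 1, 0 were higher with all other libraries and 12 with B4 also out.

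Some markers of activated microglia were higher in MRL mice. Of 22, 4 were higher and 2 lower at an unadjusted p below 0.05 (all genes 5.05% and 6.24%). Without B4 the counts were 5 and 0 (all genes 5.1% and 3.32%). A positive difference was seen in 12 of the 22, and in 17 without B4. All MRL values lay above the MRL-IRAK4-KD values in 1 gene (2.66% of all genes), and in 5 without B4 (3.77%). The 4 higher genes became 2 without MRL replicate 1 and 1 without MRL replicate 4. Lysozyme, Lyz2, which other myeloid cells also make, had 15.4, 14.1, 11 and 21.7 CPM against 7.03, 9.79, 9.89 and 11.9 CPM, with B4 above MRL replicate 3 (0.70 ± 0.21). The lipid carrier Apoe was 1153 to 1348 CPM in MRL, 1140 to 1342 CPM in 3 MRL-IRAK4-KD mice and 3306 CPM in B4. Of 20 reactive astrocyte genes, 8 were higher and 1 lower, with a median of 0.31 (8 and 0 without B4, median 0.33). The list holds H2-D1 and Cxcl10, given above, and Lcn2, the lipocalin that neutrophils also carry. Lcn2 had 1.32, 2.94, 0.901 and 14.7 CPM in the MRL mice against 0.257, 0.121, 0.0918 and 1.43 CPM in the MRL-IRAK4-KD mice, where the highest mouse was B4 (3.38 ± 1.04, adjusted p = 0.40). Without MRL replicate 4 the median of the reactive list was 0.11, with 6 genes higher.

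The general markers of the other glia showed no common difference. Of 20 astrocyte genes, 1 was higher and 2 lower at an unadjusted p below 0.05 (all genes 5.05% and 6.24%). Without B4 the counts were 2 and 0 (all genes 5.1% and 3.32%), and the medians were 0.08 with B4 and 0.06 without it. The water channel Aqp4 had 116 to 153 CPM in the MRL mice against 70.6 to 155 CPM in the MRL-IRAK4-KD mice, and the heparan sulphate proteoglycan Gpc5 had 38 to 42.5 CPM against 27.4 to 36.9 CPM, without overlap (0.23 ± 0.10). Of 20 oligodendrocyte and myelin genes, 0 were higher or lower at an unadjusted p below 0.05 in edgeR, and none was called by DESeq2 or limma-voom. Mbp differed by 0.02 ± 0.14 and the groups overlapped. Without MRL replicate 1, 6 myelin genes were lower. Of 16 genes of oligodendrocyte precursors, 3 were higher and 1 lower, and 1 and 0 without B4. The proteoglycan Cspg4 (NG2) had 18.6 to 20.9 CPM in the MRL mice against 14.8 to 17.9 CPM in the MRL-IRAK4-KD mice, without overlap (0.26 ± 0.10, unadjusted p = 0.021), and the growth factor receptor Pdgfra had 46.8 to 54.4 CPM against 40 to 45.4 CPM and 18.6 CPM in B4 (0.42 ± 0.22, unadjusted p = 0.072).

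Neuronal lists differed in a few members of the pyramidal and granule cell set. Of 20 such genes, 2 were higher and 5 lower in MRL at an unadjusted p below 0.05, with and without B4, with medians of -0.17 and -0.16. Over all genes, 5.05% were higher and 6.24% lower, and 5.1% and 3.32% without B4. Hpca, the calcium sensor hippocalcin of pyramidal cells, had 1151, 742, 831 and 731 CPM in the MRL mice against 1432, 1169, 1361 and 2134 CPM in the MRL-IRAK4-KD mice, so that MRL replicate 1 came close to the other group without reaching it (-0.82 ± 0.22, adjusted p = 0.34). Spink8, a protease inhibitor gene that marks CA1 pyramidal cells, had 15.5, 6.6, 10.2 and 8.82 CPM against 20.5, 15.3, 17.3 and 31.9 CPM, where MRL replicate 1 just overlapped (-1.04 ± 0.28, adjusted p = 0.34). Without B4 these differences were -0.59 ± 0.19 and -0.76 ± 0.25. None of the list passed after adjustment in edgeR, and DESeq2 called 2 and limma-voom 1, both 0 without B4. Without MRL replicate 1, 10 genes were lower and the median was -0.35.

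Few presynaptic, channel and interneuron genes passed an unadjusted p of 0.05 in either direction, and more glutamate receptor genes were lower than higher. Over all genes, 5.05% were higher and 6.24% lower, and 5.1% and 3.32% without B4. Of 24 glutamate receptor and postsynaptic genes, 1 was higher and 4 lower, and 2 and 4 without B4. The 4 became 7 without MRL replicate 1 and 2 without MRL replicate 2, 3 or 4. The kainate receptor subunit Grik4, which is rich in CA3, had 55.6, 33.4, 38.2 and 39.4 CPM in the MRL mice against 65, 56.8, 64.4 and 80.8 CPM in the MRL-IRAK4-KD mice, without overlap (-0.68 ± 0.17, unadjusted p = 0.0012). The NMDA receptor subunit Grin1 had 325 to 415 CPM against 387 to 548 CPM and overlapped. Of 21 interneuron genes, 1 was higher and 3 lower, and 1 and 2 without B4, and 1 was lower without MRL replicate 3 or 4. The glycoprotein Reln was 49.7 to 77.8 CPM in the MRL mice against 35.6 to 61.6 CPM in the MRL-IRAK4-KD mice (0.46 ± 0.19, unadjusted p = 0.030), the serotonin receptor Htr3a was 6.23 to 8.68 CPM against 8.88 to 12.6 CPM (-0.54 ± 0.17), and Gad1, which makes GABA, was 217 to 256 CPM against 213 to 304 CPM (-0.12 ± 0.11). Of 20 presynaptic genes, 1 was higher (Stx1a, 0.74 ± 0.24) and 2 lower with and without B4, Rab3a among them with all libraries at 364 to 426 CPM in MRL against 423 to 460 CPM and 890 CPM in B4. Of 20 voltage-gated channel genes, 1 was higher and 0 lower with and without B4. The sodium channel Scn1a had 94.3 to 106 CPM against 59.6 to 104 CPM (0.27 ± 0.14, unadjusted p = 0.073). No gene of these 4 lists passed the adjusted threshold in edgeR, and their medians lay between -0.04 and 0.00, or -0.06 and -0.02 without B4. DESeq2 called 1 and limma-voom 3 of the glutamate receptor list, and 2 and 2 without B4.

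Activity-induced transcripts were higher in MRL mice and varied widely among them. Of 18 immediate early genes, 13 were higher and 0 lower in MRL at an unadjusted p below 0.05 (all genes 5.05% and 6.24%). The median was 1.18. Without B4 11 were higher (all genes 5.1%), with the same median. None was past the adjusted threshold in edgeR, DESeq2 called 9, or 3 without B4, and limma-voom with quality weights 0. Fos had 10, 86.1, 34.3 and 11.7 CPM in the MRL mice against 4.65, 7.06, 8.35 and 2.88 CPM in the MRL-IRAK4-KD mice. The groups did not overlap, but MRL replicates 2 and 3 carried most of the difference of 2.63 ± 0.59 (unadjusted p = 0.00061, adjusted p = 0.25). Npas4, which is induced by calcium influx in neurons, had 15.4, 49.6, 20.9 and 14.4 CPM against 8.07, 11.4, 10.4 and 10.2 CPM, again without overlap (1.32 ± 0.31, adjusted p = 0.28). The summed level of the list was 871, 2016, 1387 and 838 CPM against 707, 851, 813 and 558 CPM, so MRL replicate 4 lay inside the range of MRL-IRAK4-KD mice. Without MRL replicate 2 the median was 0.65. With B4 out, leaving out a second mouse gave 4 higher genes without MRL-IRAK4-KD replicate 1, 6 without MRL replicate 2 or MRL-IRAK4-KD replicate 3, and 7 without MRL-IRAK4-KD replicate 2.

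Markers of neighbouring brain regions also varied between mice of 1 group. Over all genes, 5.05% were higher and 6.24% lower at an unadjusted p below 0.05, and 5.1% and 3.32% without B4. Of 15 neocortical genes, 5 were higher and 1 lower, with a median of 0.05 (4 and 2 without B4, median 0.20). Cux2, of upper cortical layers, had 27.6, 94.7, 68.3 and 73.4 CPM in the MRL mice against 24.7, 43.7, 28.6 and 22.8 CPM in the MRL-IRAK4-KD mice (1.14 ± 0.31), Lamp5 had 36.7, 155, 84.9 and 88.8 CPM against 36.1, 65.8, 39.3 and 40.5 CPM (1.00 ± 0.31), and Krt12 had 2.51, 10.5, 7.1 and 6.55 CPM against 1.27, 3.52, 2.58 and 2.18 CPM (1.48 ± 0.36). In all 3 genes MRL replicate 1 lay with the MRL-IRAK4-KD mice and the other 3 MRL mice were above them, and MRL replicate 2 was the highest. Of 15 striatal genes, 0 were higher or lower at an unadjusted p below 0.05 in edgeR with and without B4 (medians -0.06 and 0.16), with 0 called by DESeq2 or limma-voom. Drd1, the dopamine receptor of striatal projection neurons, had 5.6, 6.28, 8.07 and 7.32 CPM against 4.69, 6.26, 6.39 and 4.36 CPM and overlapped (0.33 ± 0.40, unadjusted p = 0.42). Of 16 genes of thalamus and habenula, 2 were higher, among them Lef1 (0.87 ± 0.20), and 2 lower, among them the habenular acetylcholine receptor subunit Chrna3 at 1.03, 0.694, 1.02 and 0.662 CPM against 1.75, 1.58, 1.69 and 1.54 CPM (-0.94 ± 0.21, unadjusted p = 0.00045). Without B4, 2 were higher and 1 lower, and the median went from -0.23 to 0.02. The part of the dissection in the neuronal differences was not tested.

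Blood cell transcripts were higher in MRL mice, all mice having been perfused. Of 16 neutrophil and monocyte genes, 16 had a positive difference, and 14 were higher and 0 lower at an unadjusted p below 0.05 (all genes 5.05% and 6.24%). The median was 3.34 (3.97 without B4, with 14 higher). None passed the adjusted threshold in edgeR, DESeq2 called 7 and limma-voom 0. The calgranulin S100a8 had 1.49, 7.32, 0.441 and 5.23 CPM in the MRL mice against 0.381, 0.101, 0.209 and 0.718 CPM in the MRL-IRAK4-KD mice. MRL replicates 2 and 4 were high, and MRL replicate 3 lay below B4 (3.35 ± 0.80, adjusted p = 0.29). The granule collagenase Mmp8 had 0.205, 0.58, 0.0588 and 0.599 CPM against 0.0161, 0.0225, 0 and 0.0435 CPM, without overlap (4.15 ± 0.90, adjusted p = 0.23). The neutrophil chemokine receptor Cxcr2 had 44, 143, 10 and 76 counts in MRL mice and 0 in all 4 MRL-IRAK4-KD mice, at least 72.5-fold higher over the groups' summed counts when 3 counts stand for 0. The summed level of the list was 21.8, 49.6, 12 and 52.8 CPM against 10.8, 8.97, 9.18 and 15.1 CPM, and without MRL replicate 4 11 genes were higher. MRL replicate 4, with the highest sum, was also the highest mouse for interferon-stimulated, antigen presentation and endothelial genes, and the part of blood cells in those lists was not tested.

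Red cell and lymphocyte genes were less even. Over all genes, 5.05% were higher and 6.24% lower at an unadjusted p below 0.05, and 5.1% and 3.32% without B4. Of 12 red cell and platelet genes, 6 were higher and 0 lower, and 8 were higher without B4. DESeq2 called 6 of them with B4 and 8 without it. The haemoglobin chain Hba-a1 had 87.9, 34.4, 22.2 and 85.8 CPM in the MRL mice against 14.2, 14.2, 14.1 and 68.1 CPM in the MRL-IRAK4-KD mice, with B4 alone among the MRL values. Alas2, of red cell haem synthesis, had 5.18, 1.65, 1.55 and 5.58 CPM against 0.827, 1.13, 0.734 and 1.55 CPM (1.73 ± 0.42). Of 24 lymphocyte and plasma cell genes, 2 were higher and 1 lower, and 3 and 0 without B4. Cd3e, of the T cell receptor complex, was at 0.0822 to 0.176 CPM in the MRL mice against 0.0808 to 0.259 CPM in the MRL-IRAK4-KD mice (-0.07 ± 0.56, unadjusted p = 0.90). The immunoglobulin constant region Ighg2c had 0.587, 2.54, 1.57 and 1.34 CPM against 0.261, 1.25, 0.411 and 0.5 CPM (1.32 ± 0.49, unadjusted p = 0.017), with MRL replicate 1 inside the other range.

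The housekeeping lists differed more with B4 than without it. Of 34 nuclear genes of the respiratory chain, 0 were higher and 19 lower in MRL at an unadjusted p below 0.05 (median -0.39, all genes 5.05% and 6.24%). Without B4, 2 were lower (median -0.10, all genes 3.32%), but all 34 had a negative difference. In 11 of the 34 all MRL values then lay below the 3 MRL-IRAK4-KD values (4.71% of all genes), and with B4 in 9 (2.68%). No gene passed after adjustment in edgeR, DESeq2 or limma-voom. Sdhb, of complex II, had 82, 81.4, 80.7 and 72.7 CPM in the MRL mice against 91.5, 83.5, 91.3 and 142 CPM in the MRL-IRAK4-KD mice, so that the groups were apart but B4 made the width of the gap (-0.37 ± 0.15). Atp5c1, of ATP synthase, had 142 to 166 CPM against 169 to 197 CPM, without overlap (-0.23 ± 0.09). The count of lower genes also fell to 4, 3, 0 and 0 without MRL replicates 1, 2, 3 and 4. Of 36 ribosomal protein genes, 1 was lower with all libraries, with a median of -0.30, and 0 passed an unadjusted p of 0.05 without B4, with a median of -0.02. With B4 in, 14 were lower without MRL-IRAK4-KD replicate 2 and 7 without MRL-IRAK4-KD replicate 1 or 3. Rps15 had 216 to 260 CPM in 7 mice and 753 CPM in B4, and Rpl11 132 to 158 CPM in 7 mice and 235 CPM in B4.

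Some genes of the mitochondrial genome were higher in MRL mice. Over all genes, 5.05% were higher and 6.24% lower at an unadjusted p below 0.05, and 5.1% and 3.32% without B4. Of 13 mitochondrial genes, 4 were higher and 0 lower, with a median of 0.22, and 3 without B4, with a median of 0.17. The 4 became 1 without MRL replicate 2 or 4 and 7 without MRL-IRAK4-KD replicate 1. The complex I subunit mt-Nd2 had 7255, 8097, 6724 and 7508 CPM in the MRL mice against 6374, 5938, 5776 and 5166 CPM in the MRL-IRAK4-KD mice, without overlap (0.35 ± 0.09, adjusted p = 0.34). The mitochondrial genome took 11.7 ± 0.99% of counts in MRL mice and 10.4 ± 0.548% in the 4 MRL-IRAK4-KD mice (SD, exact two-sided permutation p = 0.0857, where 0.0286 is the smallest possible), and 10.6 ± 0.442% in the 3 without B4 (exact p = 0.171). Of 22 genes of heat shock and the unfolded protein response, 3 were higher and 2 lower, and 2 and 0 without B4, with Atf4 past the adjusted threshold there. The inducible chaperone Hspa1a had 17 to 17.7 CPM in the MRL mice against 11.5 to 15.6 CPM in the MRL-IRAK4-KD mice, without overlap (0.35 ± 0.14, unadjusted p = 0.031). Of 24 genes of splicing and nuclear noncoding RNA, 2 were higher and 0 lower with and without B4. The splicing factor Srsf3 was 153 to 164 CPM against 140 to 147 CPM and 90.3 CPM in B4 (0.28 ± 0.12), the nuclear RNA Malat1 was 1709 to 2600 CPM in 7 mice and 8666 CPM in B4, and Xist, transcribed from the inactive X chromosome, was 703 to 825 CPM in the MRL mice against 280 to 693 CPM in the MRL-IRAK4-KD mice.

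**Figure D4:**
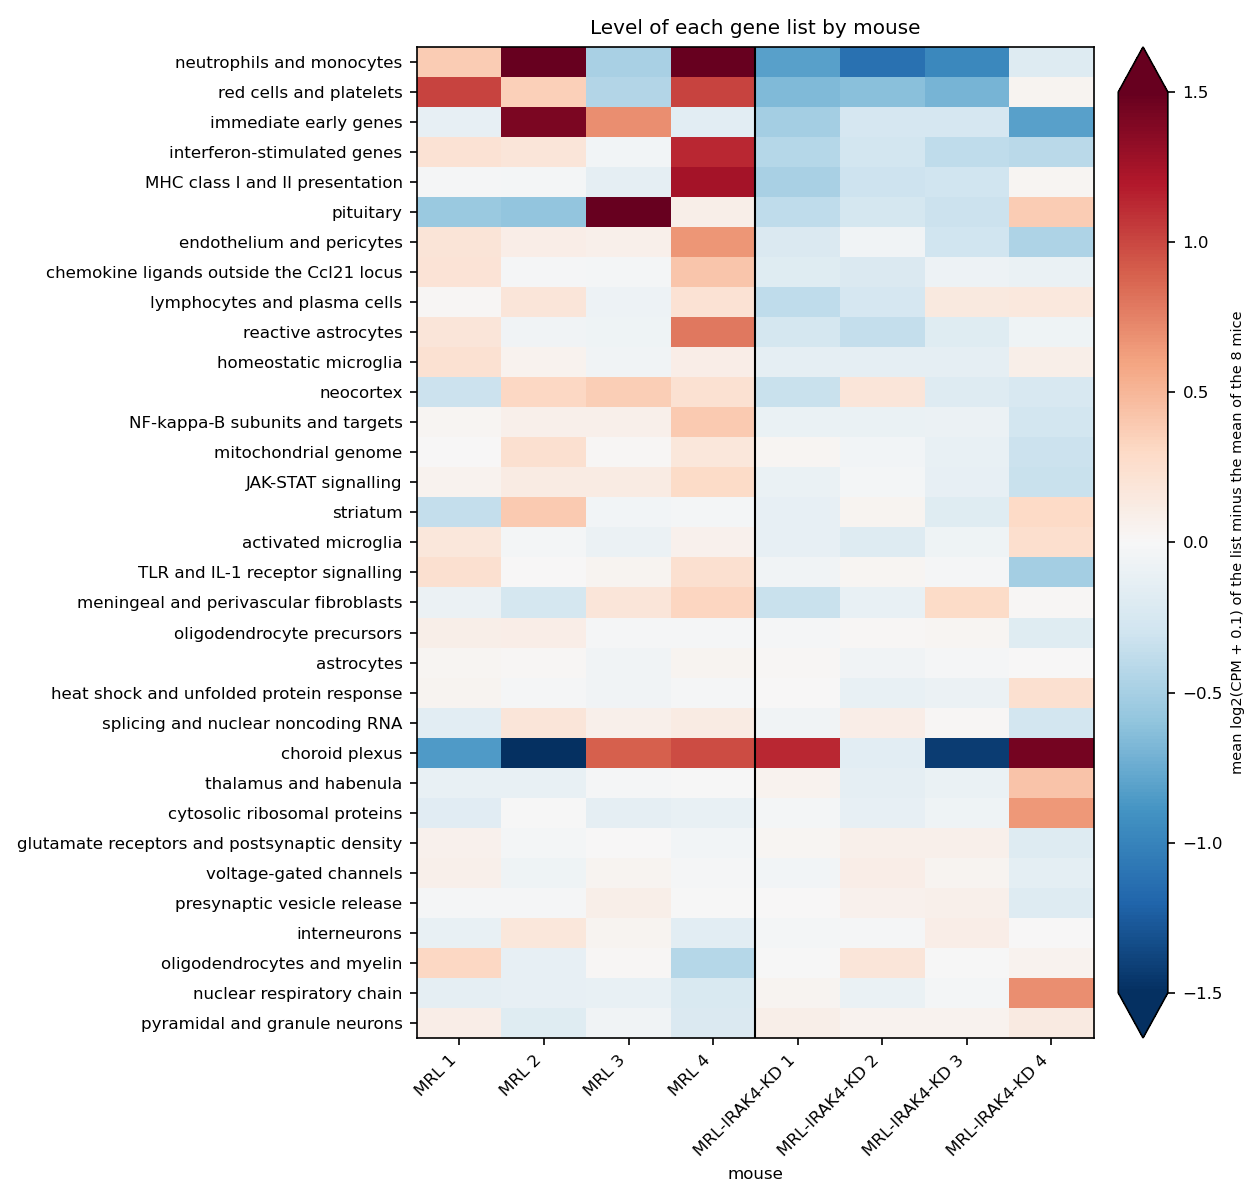
Heat map of the mean log2(CPM + 0.1) of each gene list in each of the 8 mice, as its difference from the mean of the 8. MRL replicate 4 is high for interferon-stimulated, antigen presentation and endothelial genes, MRL replicate 2 for immediate early genes, MRL replicates 2 and 4 for neutrophil genes, and B4 stands apart for ribosomal genes.

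Markers of tissue at the edges of the hippocampus varied between mice of both groups. Over all genes, 5.05% were higher and 6.24% lower at an unadjusted p below 0.05, and 5.1% and 3.32% without B4. Of 19 choroid plexus genes, 0 were higher and 1 lower with all libraries (median -0.60) and 0 differed without B4 (median 0.03), with none past the adjusted threshold in edgeR, DESeq2 or limma-voom. The transthyretin gene Ttr had 180, 48.4, 1262 and 1492 CPM in the MRL mice against 1635, 479, 110 and 7365 CPM in the MRL-IRAK4-KD mice, a spread within each group far wider than the difference of -1.71 ± 1.25. Otx2, the choroid plexus homeobox gene, overlapped in the same way, at 1.68 to 6.82 CPM against 2.8 to 20.8 CPM. Of 19 fibroblast genes of meninges and vessels, 0 were higher or lower with all libraries and 1 was lower without B4, with Dcn at 28.2 to 40 CPM against 30.5 to 67.5 CPM. Of 12 pituitary genes, 3 were higher and 2 lower (2 and 0 without B4), but prolactin, Prl, was 69.2 CPM in MRL replicate 3, 3.02 CPM in MRL replicate 4 and 0.618 CPM or less in the other 6 mice. Without MRL replicate 3, 0 pituitary genes were higher and the median turned from 0.90 to -0.56.

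Genes beside the bounds of the excluded stretch are given as values with no test. Just outside it, B4galt1, a galactosyltransferase, differed by 0.02 and Reck, a membrane-anchored inhibitor of metalloproteases, by 0.22, and just inside it Gm12397 differed by 0.06 and Tmem8b by -0.02.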

How the data were processed

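Hippocampal RNA of 14 mice in 4 groups was sequenced. According to the submitters' processing notes, reads were aligned to mm10 with HISAT2 2.1.0 and SAMtools 1.9, genes were quantified with StringTie 2.1.0, and DESeq2 1.30.1 was run in R 4.0.5. The deposited values are whole-number gene counts that the authors derived from StringTie coverage. They came to 1.40 to 2.08 counts per read, so counting error per read is understated in them, and halved counts were tried. The 1.40 was that of MRL-IRAK4-KD replicate 4, and the other 13 libraries had at least 1.80. The deposited library sheet also gives other values per library (RNA concentration and quality readings). The annotation is not given in the sources used here, and all 55536 Ensembl identifiers matched GENCODE M21. Rows of 26248 tRNA features and 97 spike-ins were left out. Total counts per library of the 8 mice ran from 321773653 to 571925600, and the spread between mice, not depth, limits the precision of genes above a few counts.

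Genes that reached 10 counts in total entered a model in edgeR 4.0.16 (TMM normalization, robust quasi-likelihood test, 1 fit of all 4 groups, R 4.3.3), with Benjamini-Hochberg adjustment over all 38070 genes tested, and again without MRL-IRAK4-KD replicate 4. The study's notes name DESeq2; here DESeq2 1.42.0 and limma 3.58.1 (voom with sample quality weights) served as alternatives, beside other scalings, filters, a replicate block, only the 8 libraries, and each library left out in turn. Permutation tests of single values were exact (scipy 1.17.1), run with Python 3.11.15 and, for plots, matplotlib 3.10.9. The steps were tested on simulated counts drawn from each gene's mean and spread. These held no shift by exon length like that of MRL-IRAK4-KD replicate 4, so they do not speak to it. Promoter sequence came from RefSeq on GRCm38.p6, the assembly of mm10.

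The genes named were Irak4 and Fas, every gene past an adjusted p of 0.05, up to 10 in each direction that passed without MRL-IRAK4-KD replicate 4 with groups apart and at least 1 CPM, the first gene and the 2 genes of smallest unadjusted p in each of 33 gene lists, and the genes at the bounds of the excluded interval. Some genes that this rule names are not reported here. Other genes named in a list paragraph come under the same rule through another list. The 33 lists (16 of cell types or regions, 17 of processes) hold 683 genes. The members and lists were chosen with earlier results of these data known, so their counts are descriptions.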

Additional observations from a re-analysis of the deposited data

Results flagged for a closer look

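In 222 groups of 4 mice, 28 held a highest or lowest value whose distance to its neighbour exceeded Dixon's 95% critical value as a share of the group's range. That value allows about 1 in 20 for independent, normally distributed values. Most values here were CPM of genes named partly by these same data, and came from the same few mice. The 28 can therefore not be set against that rate. Of the 28, 19 were MRL-IRAK4-KD replicate 4 and 6 were MRL replicate 4.

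MRL-IRAK4-KD replicate 4 was the high value for Malat1 (8666 CPM), Apoe (3306 CPM), Rab3a (890 CPM), Rps15 (753 CPM), Grin1 (548 CPM), Ntsr2 (242 CPM), Rpl11 (235 CPM), Chga (156 CPM), Sdhb (142 CPM), Hba-a1 (68.1 CPM), Tcf7l2 (17.3 CPM), Lag3 (8.2 CPM), G530011O06Rik (5.26 CPM) and Lcn2 (1.43 CPM). It was the low value for Srsf3 (90.3 CPM), Atf4 (58.5 CPM) and Gpc5 (27.4 CPM). It also stood apart in the concentration of its input RNA by Qubit (27.4 on the submitters' sheet), though not by NanoDrop, and in the share of tRNA features among its counts (0.188%). Messenger, nuclear and mitochondrial-protein transcripts were thus among the values that stood apart in this mouse, in both directions.

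MRL replicate 4 was the high value for H2-D1 (83.1 CPM), Lcn2 (14.7 CPM), H2-Q7 (13.4 CPM), Ifit1 (5.83 CPM) and Ch25h (2.2 CPM), and the low value for Sdhb (72.7 CPM). MRL replicate 3 was the high value for Prl (69.2 CPM). MRL-IRAK4-KD replicate 2 was the high value for Lamp5 (65.8 CPM), and MRL-IRAK4-KD replicate 3 for Lyplal1 (8.8 CPM).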

How the results depend on the processing

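The 6 higher and 4 lower genes at an adjusted p became 215 and 143 in DESeq2, 105 and 93 in limma-voom with quality weights, and 1 and 1 when only the 8 MRL and MRL-IRAK4-KD libraries were fitted, and 1 gene was higher without the library labelled IRAK4-KD replicate 3. Without B4, the 15 higher and 7 lower genes became 281 and 137 in DESeq2 and 102 and 91 in limma-voom, and 6 were higher with only the 7 libraries. At an unadjusted p, limma-voom gave 3143 higher genes, and 3244 higher and 2628 lower without B4, and the fit of only the 8 libraries gave 1237 and 1094. Leaving out single mice, the adjusted counts ran from 1 to 15 higher and 2 to 12 lower, and from 4 to 130 and 3 to 159 with B4 out. The unadjusted counts ran from 1258 to 2353 higher and 1200 to 3466 lower, and with B4 out from 1231 to 2752 and 767 to 2103. Other scalings, filters and halved counts kept each of these counts within 1.5 times. The cause of these changes was not tested.

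Same-numbered mice did not deviate together (correlations of 0.295, -0.101, -0.0593 and 0.0577), so the numbers are not taken as pairs. With the replicate number as a block, 4 and 4 genes passed the adjusted threshold, 1417 were lower at an unadjusted p, and without B4 8 were higher.

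The sign changed in genes near 0 or with few counts. In limma-voom it did so for Otx2 (0.036, and 0.16 without B4), Ighg2b (-0.90 and -1.10), Foxp1 (0.012 and 0.037) and Gm12397 (-0.26). Leaving out a mouse moved Gm12397 between -0.23 and 0.29, Tmem8b between -0.060 and 0.033, and B4galt1 between -0.046 and 0.093. With B4 out, the block gave -0.0013 for B4galt1 and -0.0091 for Reck, and a further mouse left out moved Rps15 between -0.079 and 0.0030, Foxp1 between -0.052 and 0.054, B4galt1 between -0.0045 and 0.21, Reck between -0.060 and 0.078, Calml4 between -0.77 and 0.13, and Otx2 between -0.65 and 0.42.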

Other observations

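Features outside the gene comparison also differed in level between mice. The tRNA features of the count table, which were not tested as genes, took 0.0769 ± 0.0218% of all counts in the 4 MRL mice and 0.0322 ± 0.00593% in the 3 MRL-IRAK4-KD mice without B4 (SD, exact two-sided permutation p = 0.0571, the smallest that 4 mice against 3 allow), and 0.188% in B4. With B4 the 4 MRL-IRAK4-KD mice were at 0.0713 ± 0.0782% (exact p = 0.943).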
